A study of Mus musculus with 6 samples.

Results

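The genes described here are 45 members of the DNA replication and S phase programme, chosen by name and measured in mouse multiple myeloma cells with or without insulin-like growth factor 1 (IGF-1). Of the 45, 42 had a probe set annotated with their symbol alone, out of 12393 genes in the table, and these 42 were covered by 75 of its 22690 probe sets. Chaf1a, E2f2 and Gins2 were not analysed here. Each gene was represented by its brightest probe set over the 6 arrays, and 39 of the 42 passed a filter on dim signals (mean signal above 53.61) and were tested.

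The cells are labelled as malignant plasma cells from bone marrow of mice with multiple myeloma. Control cells (3 arrays) stood for 12 h in medium without serum and without IGF-1, and treated cells (3 arrays) stood equally long, without serum, in medium holding 100 ng/ml IGF-1, so the absence of serum is shared by both groups. The labels name no line, genotype or age. They leave unsaid if replicates came from different cultures or mice, so the p-values reflect how far these arrays scatter, which could be purely technical. Values are MAS5 signals, a summary of the probes of each transcript on an Affymetrix expression array, and a signal is no measure of transcript amount between probe sets. In bulk RNA, fewer cells of a type and less RNA per cell cannot be told apart.

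Of 7 plasma cell markers on the array, all 7 lay above the filter, and their summed signal was 11290 to 12220 in control and 10440 to 10880 in IGF-1 arrays, without overlap. Tnfrsf17 and Slamf7 fell and no plasma cell marker rose by limma (0 higher at an unadjusted p under 0.05). But on the scale of the hybridization controls, RNAs added at the hybridization step, 1 rose and none fell. There 24.5% of all tested genes rose and 2.04% fell. That scale does not measure the amount of RNA in the cells. Markers of T and NK cells and of stroma lay below the filter except for Nkg7, Lepr and Col1a2. Of the B cell markers Pax5 and Ms4a1 lay below it, but Cd79b lay above it. Cd79b had 944 ± 31.6 in control and 982 ± 45.7 in IGF-1 arrays, with overlapping groups. Of 7 erythroid markers 4 lay above the filter, with summed signals over the 7 of 440 to 668 in control and 516 to 622 in IGF-1 arrays. Among these Slc4a1, the red cell anion exchanger, rose by 0.54 (adjusted p = 0.0169), a call that ended without control 2, IGF-1 1 or IGF-1 2. Its probe set is of a kind whose probes can match other transcripts. The other 3 above the filter were lower and did not pass: Alas2 (-0.44), Car2 (-0.37) and Epor (-0.03). The part of Slc4a1 in the results below was not tested. All 13 neutrophil markers and 7 of 9 macrophage and monocyte markers lay above it.

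Before a cell copies its DNA, the origin recognition complex, CDC6 and CDT1 load rings of the MCM2-7 helicase onto origins, a step called licensing. CDC45 and the GINS complex then switch the helicase on, polymerases copy both strands with the PCNA clamp, and ribonucleotide reductase, thymidylate synthase and thymidine kinase supply the nucleotides. Many of these genes are transcribed at the start of S phase by E2F factors, which the retinoblastoma protein holds back until cyclin-dependent kinases act. Normal plasma cells have left the cell cycle, whereas myeloma cells can still divide.

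With IGF-1, 7 of the 39 tested members rose and 0 fell, and 32 did not pass the threshold of an adjusted p of 0.05 by limma. The 7 were the licensing factor Cdc6 and the helicase subunit Mcm5, the clamp Pcna, the ligase Lig1, the nucleotide enzymes Tk1 and Rrm1, and the cyclin Ccne1. They make up 17.9% of the tested members, beside 7.05% of all 6895 tested genes that rose and 8.05% that fell. At an unadjusted p under 0.05, 16 members were higher and 1 was lower, beside 14.4% and 16.1% of all tested genes. The changes were small, with ratios of mean signals between 1.36 for Pcna and 1.72 for Tk1.

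In 17 of the 39 tested members (43.6%) the 3 IGF-1 arrays lay above the 3 control arrays without overlap, beside 17.1% of all tested genes. In 1 member they lay below, beside 18.2%. The difference was positive in 29 members (74.4%), beside 48.7% of all tested genes. On the scale of the hybridization controls it was positive in all 39. The share over all tested genes was not counted there, but their median was 0.26. That scale moved genes upward in general, with 24.5% of all tested genes higher and 2.04% lower by limma. The median log2 difference was 0.24 over the members and -0.01 over all tested genes. With that scaling the medians were 0.49 and 0.26. The scaling divides all signals of an array by the same factor. The gap between members and all genes, 0.24 on both scales, could therefore hardly change and is no further support.

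**Figure D1:**
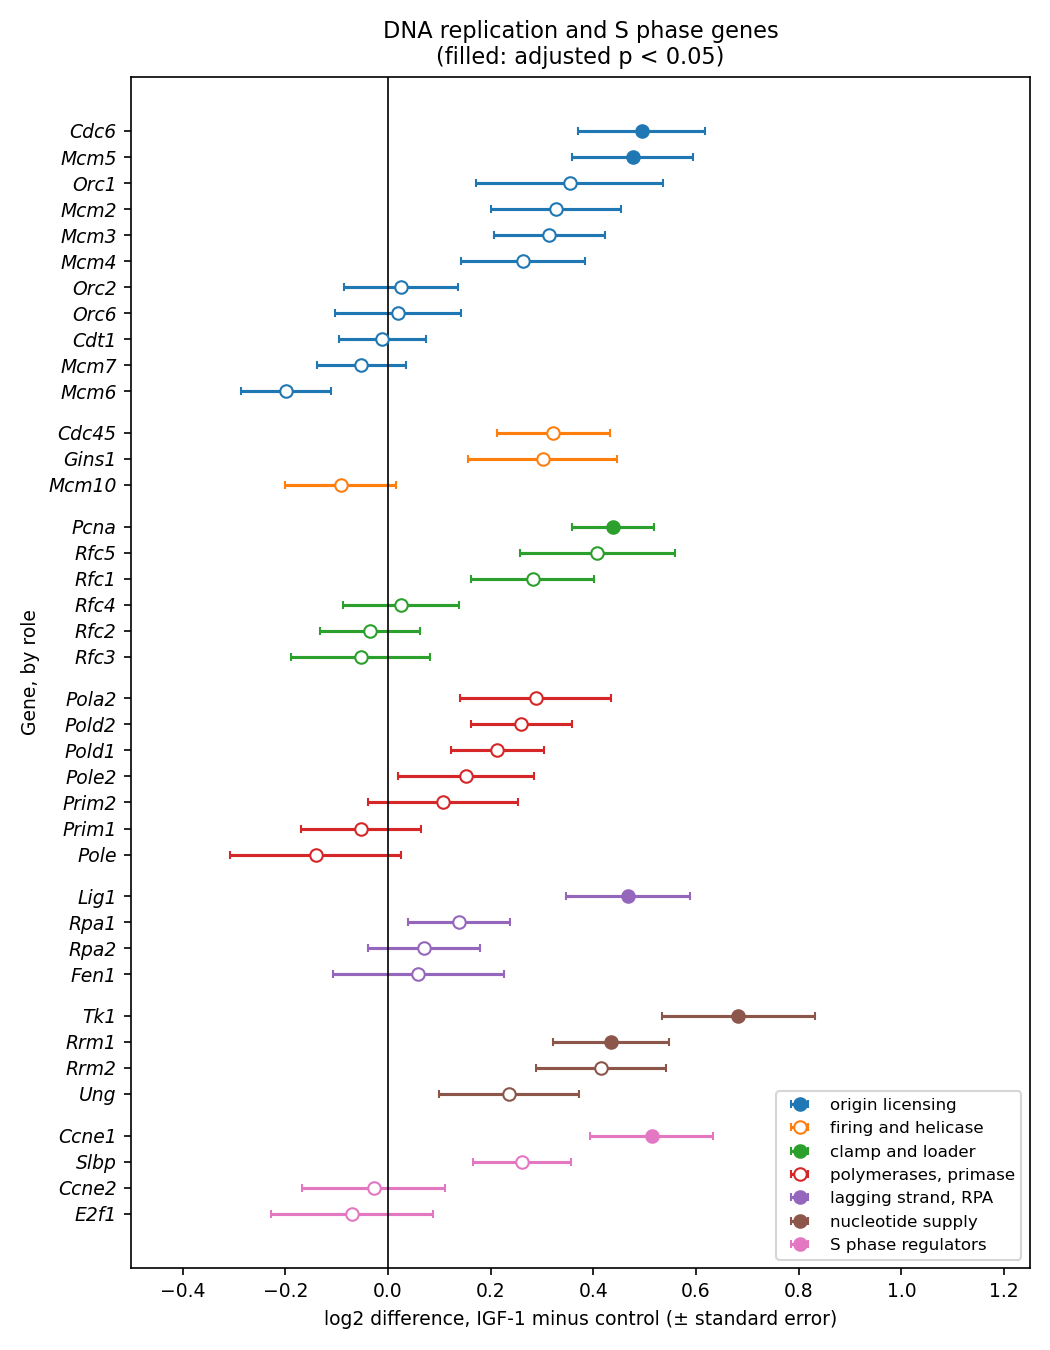
Log2 difference between IGF-1 and control arrays (x axis, points with standard errors from limma) for the 39 tested genes, ordered by role and size. Filled points mark the 7 genes past the adjusted threshold, all to the right of 0. The 10 genes left of 0 turned positive on the scale of the hybridization controls, where the median of all tested genes was 0.26.

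Taking each tested member relative to its own control mean on the log2 scale, the median over the 39 was 0.06, -0.02 and -0.07 in controls 1, 2 and 3, and 0.21, 0.18 and 0.17 in IGF-1 arrays 1, 2 and 3. The 3 IGF-1 medians were above all 3 control medians. Over all 6895 tested genes the medians were -0.015, 0.002 and -0.004 in IGF-1 arrays 1, 2 and 3, and between -0.007 and 0.014 in control. Of the 39 members, 13 had their highest signal in IGF-1 1, 10 in IGF-1 2 and 6 in IGF-1 3, and 10 in a control array. The lowest signal fell in control 3 for 13 members and in control 2 for 11. Such counts were not made over all tested genes.

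Promoters are shown for 4 members to let the regulatory letters be read beside the values: Mcm5 and Cdc6, which rose and hold an E2F-type motif before the start site, Pcna, which rose and holds none there, and Mcm6, which holds several and whose IGF-1 signals lay below the controls. Each line gives the 160 bases before the start site, 5′ to 3′ on the strand of the gene, from RefSeq on GRCm38.p6. Capitals mark an E2F-type motif or a CCAAT box, the site of the factor NF-Y, on either strand.
Mcm5: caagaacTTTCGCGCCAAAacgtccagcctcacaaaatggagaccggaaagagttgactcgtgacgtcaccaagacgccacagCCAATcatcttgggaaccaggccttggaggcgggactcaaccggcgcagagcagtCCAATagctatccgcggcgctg
Cdc6: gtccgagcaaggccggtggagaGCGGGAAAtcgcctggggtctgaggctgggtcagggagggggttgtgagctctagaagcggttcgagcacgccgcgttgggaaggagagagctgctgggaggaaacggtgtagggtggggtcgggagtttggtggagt
Pcna: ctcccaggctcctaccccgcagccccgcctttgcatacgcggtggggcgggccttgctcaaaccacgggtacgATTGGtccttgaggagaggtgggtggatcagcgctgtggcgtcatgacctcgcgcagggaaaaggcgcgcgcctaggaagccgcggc
Mcm6: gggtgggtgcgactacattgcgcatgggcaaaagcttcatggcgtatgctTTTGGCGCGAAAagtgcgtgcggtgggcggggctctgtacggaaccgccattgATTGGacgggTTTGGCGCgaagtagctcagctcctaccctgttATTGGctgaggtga
They lie at chr8:75109349-75109508 (plus strand), chr11:98907991-98908150 (plus), chr2:132253181-132253340 (minus) and chr1:128359706-128359865 (minus), immediately upstream of the annotated gene starts.

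The E2F-type motifs searched, on both strands, were TTTCGCGC, TTTGGCGC, TTTCCCGC, TTTGGCGG, TTTCGCGG and TTTCCCGG, in windows of 250 bases before to 50 after the start. In Mcm5 a TTTCGCGC and, on the other strand, a TTTGGCGC overlap in 1 run of 12 bases, and Mcm6 holds such an overlapping pair and a further TTTGGCGC. Of the 45 members, 38 matched the promoter table, with 45 windows. Of these windows 35.6% held such a motif, beside 4.8% of the windows of protein-coding genes and 3.8% of all windows. By gene, 16 of 38 members (42.1%) held one in any window, beside 5.5% of 17491 protein-coding genes. Of the 7 that rose, 3 did (Cdc6, Lig1 and Mcm5), and of 26 matched members that were tested and did not pass, 10 did. CCAAT stood in 57.8% of the member windows and 38.2% of the windows of protein-coding genes. A match of letters is not a measured binding site.

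Among 11 origin recognition and licensing genes, all tested, 2 rose, 0 fell and 9 did not pass by limma (4 higher and 1 lower at an unadjusted p under 0.05), with a median of 0.26. Cdc6, the ATPase that helps load the helicase, gave signals of 192, 198 and 213 in control and 335, 244 and 296 in IGF-1 arrays. Every IGF-1 array was above every control array, and the IGF-1 arrays were spread more widely, with means of 201 ± 10.6 and 292 ± 45.5 (SD, n = 3). The log2 difference was 0.49 ± 0.12 (SE, adjusted p = 0.0243), and leaving out control 1, control 2, IGF-1 1 or IGF-1 3 ended the call (adjusted p up to 0.0746).

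Mcm5, a subunit of the helicase ring, gave 254, 222 and 211 in control and 324, 364 and 288 in IGF-1 arrays. The groups did not overlap, and IGF-1 2 was the highest array. The log2 difference was 0.48 ± 0.12 (adjusted p = 0.0232), and leaving out control 2, control 3, IGF-1 1 or IGF-1 2 ended it (adjusted p up to 0.0907).

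The other subunits of the MCM2-7 ring did not pass in their brightest probe sets. Mcm2 had 350 ± 50.1 in control and 441 ± 47.6 in IGF-1 arrays, without overlap, and a difference of 0.33 ± 0.13 (adjusted p = 0.11). Its second probe set, of a kind whose probes can match other transcripts (cross-hybridizing), ranged from 204 to 647 within the control arrays alone and gave -0.24 ± 0.32. Mcm3 (0.31 ± 0.11, adjusted p = 0.0771) and Mcm4 (0.26 ± 0.12, adjusted p = 0.168) also had IGF-1 arrays above all controls. The brightest Mcm3 probe set is also of the cross-hybridizing kind. Of 4 tested Mcm3 probe sets, all were higher and 1 passed (0.34 ± 0.10, adjusted p = 0.04), a call lost without any 1 of the 6 arrays. Mcm7 gave -0.05 ± 0.09 in its brightest probe set, again of the cross-hybridizing kind, and its 4 tested probe sets ran from -0.13 to 0.26. In the highest of these the groups did not overlap, with 388 ± 12.3 in control and 466.5 ± 24.7 in IGF-1 arrays (adjusted p = 0.0881).

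Mcm6 stood on the other side of 0, picked out here after its values were seen. Its signals were 949, 872 and 867 in control and 817, 752 and 765 in IGF-1 arrays, so that all IGF-1 arrays were below all controls. The difference was -0.20 ± 0.09 (adjusted p = 0.155), and turned to 0.09 with scaling to the hybridization controls. The second probe set of Mcm6, of the cross-hybridizing kind, gave -0.29 ± 0.11 (adjusted p = 0.0942). The log2 ratio of Mcm5 to Mcm6 signal within each array was -1.84, -1.90 and -1.96 in control and -1.29, -1.01 and -1.36 in IGF-1 arrays, 0.68 higher with IGF-1. The pair was chosen for this separation, so the ratio is a description with no test.

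The origin recognition genes themselves did not pass. Orc1, an ATPase subunit of the complex, had 50.1 ± 10.2 in control and 68.7 ± 16.4 in IGF-1 arrays (0.35 ± 0.18, adjusted p = 0.222), with overlapping groups. It was the 1 tested member whose control mean lay below the filter, so it entered through its IGF-1 arrays. Orc2, Orc6 and Cdt1, the other loading factor, had differences from -0.01 to 0.03, with overlapping groups. These 3 values became 0.28 to 0.29 on the scale of the hybridization controls.

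Of 3 tested genes that switch the helicase on, 0 rose and 0 fell by limma, with 1 higher at an unadjusted p under 0.05. Cdc45, part of the active helicase, had 184 ± 21.5 in control and 233 ± 7.88 in IGF-1 arrays (0.32 ± 0.11, adjusted p = 0.077), and passed without control 1 (adjusted p = 0.0424). Gins1, a subunit of the GINS complex, had 64.8 ± 5.14 and 83.9 ± 12.6 (0.30 ± 0.14, adjusted p = 0.192). In both genes the 3 IGF-1 arrays were above the 3 controls, while Mcm10, a helicase activator, overlapped (-0.09 ± 0.11, and 0.17 with scaling to the hybridization controls).

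Pcna, the sliding clamp that tethers polymerases to DNA, was the member with the smallest adjusted p. Its signals were 1696, 1652 and 1654 in control and 2186, 2250 and 2363 in IGF-1 arrays. The controls differed by less than 50 signal units among themselves, and the IGF-1 arrays stood well clear of them. The ratio of means was 1.36 and the log2 difference 0.44 ± 0.08 (adjusted p = 0.00621), and it passed whichever of the 6 arrays was dropped (adjusted p up to 0.0323). It was also the 1 member still past the threshold when no filter was applied, 2.38% of the members beside 2.32% of all tested genes.

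The clamp loader, the RFC complex that opens PCNA onto DNA, did not pass in any of its 5 subunits. Rfc5 had 210 ± 30.3 in control and 286 ± 58.9 in IGF-1 arrays (0.41 ± 0.15, adjusted p = 0.0963), with overlap, since IGF-1 2 (235) was below control 1 (245). Rfc1, the large subunit, had 130 ± 16.7 and 160 ± 8.40 without overlap (0.28 ± 0.12, adjusted p = 0.143), and its dimmer probe sets gave 0.05 and 0.09. Rfc2, Rfc3 and Rfc4 ran from -0.05 to 0.03, with overlapping groups.

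Of 7 tested polymerase and primase genes, 0 rose and 0 fell by limma, with 2 higher at an unadjusted p under 0.05 and a median of 0.15. Pola2, the accessory subunit of the polymerase that starts each strand, had 162 ± 20.4 in control and 202 ± 37.9 in IGF-1 arrays (0.29 ± 0.15, adjusted p = 0.218), with overlap. Pold2, a subunit of the lagging-strand polymerase delta, gave 249, 256 and 291 in control and 322, 319 and 320 in IGF-1 arrays. Its groups did not overlap, and the IGF-1 arrays were close together (0.26 ± 0.10, adjusted p = 0.104). The catalytic subunit Pold1 was likewise higher without overlap (0.21 ± 0.09, adjusted p = 0.145), while its cross-hybridizing second probe set gave -0.17 ± 0.12. Pole2, Prim2, Prim1 and Pole ran from 0.15 down to -0.14, with overlapping groups. Pola1 lay below the filter, at 42.8 ± 6.69 in control and 49.8 ± 6.60 in IGF-1 arrays.

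Lig1, the ligase that seals fragments of the lagging strand, gave 273, 299 and 227 in control and 391, 393 and 336 in IGF-1 arrays. The lowest IGF-1 array was above the highest control. The difference was 0.47 ± 0.12 (adjusted p = 0.0279), and dropping control 1, control 3, IGF-1 1 or IGF-1 2 ended the call (adjusted p up to 0.0977).

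Fen1, the nuclease that trims the flaps that LIG1 then seals, differed by probe set. The brightest, of the kind that can cross-hybridize, gave 665 ± 131 and 692 ± 139 (0.06 ± 0.17, adjusted p = 0.845). The dimmer gave 185, 157 and 161 in control and 264, 232 and 230 in IGF-1 arrays. That probe set passed (0.49 ± 0.11, adjusted p = 0.0159), and dropping control 2 or IGF-1 1 ended its call (adjusted p up to 0.0579). Rpa1 and Rpa2, subunits of the protein that coats single strands, had differences of 0.14 ± 0.10 and 0.07 ± 0.11 with overlapping groups. Chaf1b, a subunit of the assembly factor that places histones on new DNA, lay below the filter at 45.5 ± 12.1 and 56.3 ± 4.13.

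The nucleotide supply genes had the highest median of the roles (0.42 over 4 tested members, of which 2 rose and 0 fell by limma, with 0 lower at an unadjusted p under 0.05). Tk1, the thymidine kinase of dividing cells, gave 97.0, 74.5 and 94.3 in control and 124, 175 and 157 in IGF-1 arrays. The groups did not overlap, and the ratio of means, 1.72, was the largest among tested members. The log2 difference was 0.68 ± 0.15 (adjusted p = 0.0139), lost without control 2 or IGF-1 2 (highest adjusted p 0.0588).

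Rrm1, the large subunit of ribonucleotide reductase, gave 285, 284 and 272 in control and 375, 338 and 446 in IGF-1 arrays. The controls lay close together and below all IGF-1 arrays. The brightest probe set differed by 0.43 ± 0.11 (adjusted p = 0.0293), a call kept only without IGF-1 2 (highest adjusted p 0.106). The second probe set gave 197, 214 and 204 in control and 315, 293 and 323 in IGF-1 arrays, and rose by 0.56 ± 0.10 (adjusted p = 0.00509). That call held without each array in turn (highest adjusted p 0.0233).

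Rrm2, the subunit that carries the radical and limits the enzyme through the cell cycle, fell just short in its brightest probe set, with 432 ± 71.0 in control and 579 ± 60.9 in IGF-1 arrays (0.42 ± 0.13, adjusted p = 0.0516). That probe set is of the cross-hybridizing kind, and in it all IGF-1 arrays were above all controls. Another of its 3 probe sets passed (0.53 ± 0.13, adjusted p = 0.0201, not passing once control 3, IGF-1 1 or IGF-1 3 was dropped, adjusted p up to 0.069), and the remaining one gave 0.34 ± 0.13. Ung, which removes uracil from DNA, had 81.3 ± 4.23 and 99.0 ± 14.9 (0.24 ± 0.14, adjusted p = 0.279), with overlap. Tyms, thymidylate synthase, was dim in all 3 of its probe sets, the brightest giving 15.6 ± 5.77 and 8.47 ± 7.69, and was not tested.

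Among S phase regulators 1 of 4 rose, and 0 fell by limma, with 0 lower at an unadjusted p under 0.05. Ccne1, cyclin E1, which drives CDK2 at S phase entry, gave 87.3, 95.8 and 97.1 in control and 157, 132 and 131 in IGF-1 arrays. The groups stood clearly apart. The log2 difference was 0.51 ± 0.12 (adjusted p = 0.0188), lost without IGF-1 1 (adjusted p = 0.0619). Ccne2, the second E cyclin, gave 100, 99.4 and 80.2 in control and 101, 78.8 and 94.0 in IGF-1 arrays, with overlapping groups (-0.03 ± 0.14, adjusted p = 0.916). The log2 ratio of Ccne1 to Ccne2, a pair chosen after its values were seen, was -0.17, -0.04 and 0.24 in control and 0.57, 0.65 and 0.42 in IGF-1 arrays. It was 0.54 higher with IGF-1, given as a description with no test.

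Slbp, which binds the stem-loop of histone mRNAs, had 306 ± 9.33 in control and 371 ± 23.1 in IGF-1 arrays without overlap (0.26 ± 0.09, adjusted p = 0.0916). E2f1, an activating E2F factor, was dim, at 63.3 ± 6.13 and 59.9 ± 11.6 (-0.07 ± 0.16, adjusted p = 0.806), with overlapping groups. Its difference was 0.16 on the scale of the hybridization controls.

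**Figure D2:**
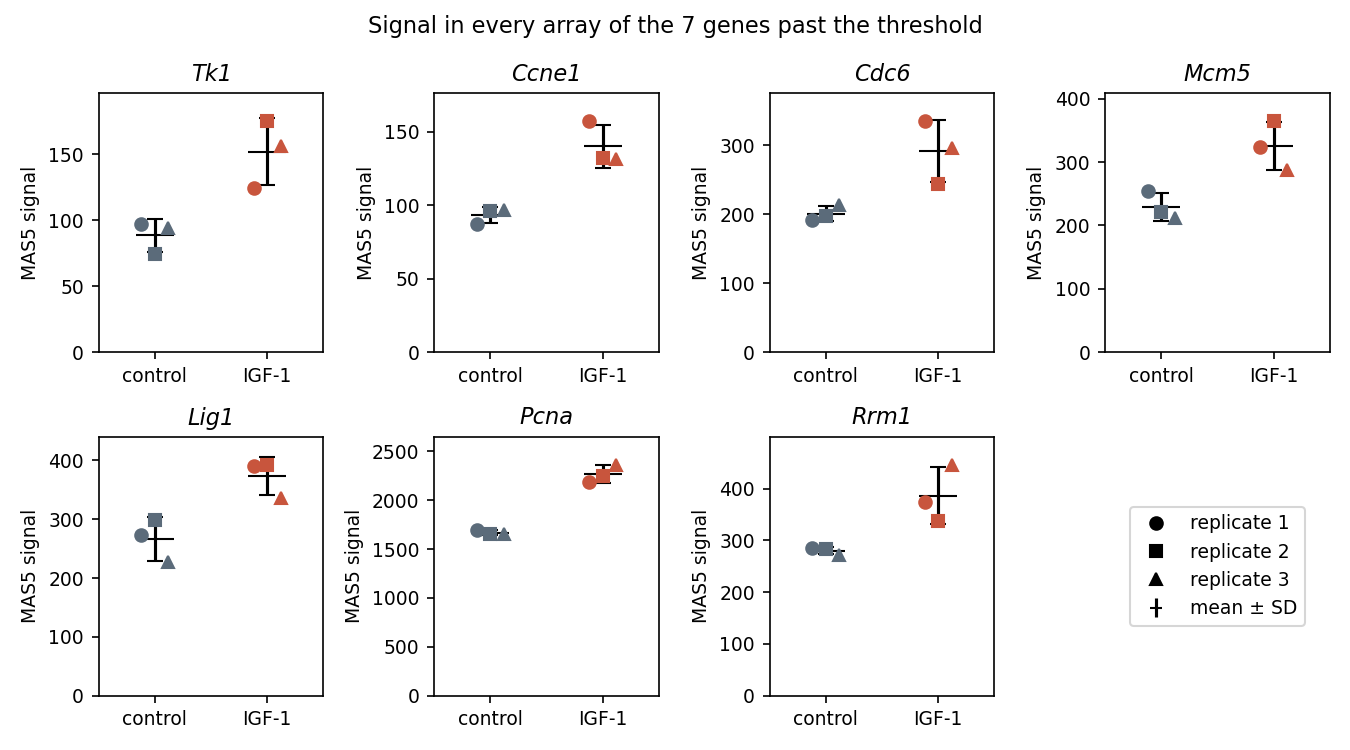
MAS5 signal (y axis, linear from 0) in each of the 3 control and 3 IGF-1 arrays for the 7 genes that rose, with mean and SD as bars. In every panel all IGF-1 points lie above all control points.

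Of 63 tested probe sets of members, 11 passed as higher and 0 as lower, beside 6.82% and 8.28% of all 11313 probe sets tested. Of the 17 members with more than 1 tested probe set, 9 were higher in all, 3 were lower in all and 5 had probe sets of both signs. The 3 lower in all were Mcm6, Prim1 and Cdt1, and their brightest probe sets turned positive with scaling to the hybridization controls. The 5 with both signs were Mcm2, Mcm7, Orc2, Pold1 and Rfc3, none of which had a probe set past the threshold. In all, 10 members had at least 1 probe set past the threshold, of which Fen1, Mcm3 and Rrm2 passed only in a dimmer one.

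**Figure D3:**
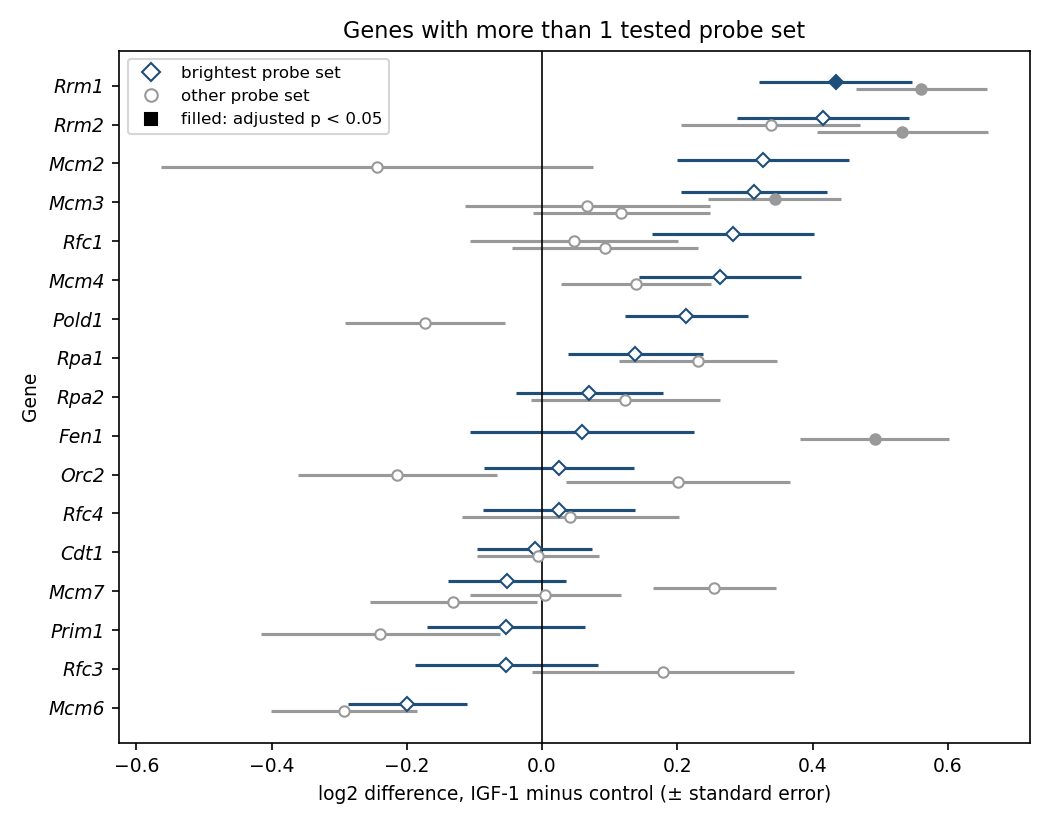
Log2 difference with standard error (x axis) of each tested probe set for the 17 genes with more than 1, diamonds for the brightest and circles for the others, filled where the adjusted p was under 0.05. Rrm1 is filled in both of its probe sets, and the 2 points of Fen1, Mcm2 and Pold1 lie far apart.

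The factors around these genes were read from lists of other pathway members. Their counts stand beside 7.05% of all tested genes that rose and 8.05% that fell. Of 21 tested further replication factors, 3 rose and 0 fell by limma (1 lower at an unadjusted p under 0.05), with a median of 0.14. They were Gmnn, the inhibitor of CDT1, from 363 ± 44.7 to 514 ± 18.9 (0.49 ± 0.11, adjusted p = 0.0139), Pole3, a small subunit of polymerase epsilon (0.61 ± 0.13), and Rpa3 (0.47 ± 0.14). Without IGF-1 2 none of the 3 passed (highest adjusted p 0.0557, 0.0558 and 0.128). Rpa3 was also lost without control 1, 2 or 3 or IGF-1 1, and the Pole3 probe set is of the cross-hybridizing kind. The G1/S control list had 4 of 16 tested genes that rose and 1 that fell, with a median of -0.01 (0.23 with scaling to the hybridization controls).

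E2f4, an E2F factor mostly known as a repressor together with pocket proteins, gave 152, 165 and 165 in control and 283, 277 and 306 in IGF-1 arrays. It rose by 0.79 ± 0.10 (adjusted p = 0.00116) and passed whichever array was dropped (adjusted p up to 0.00685). Cdkn1a, the CDK inhibitor p21 (0.77 ± 0.09), Ccna2, cyclin A2 (0.58 ± 0.10), and Cks1b, a CDK subunit (0.35 ± 0.08), rose. Cks1b did not pass once control 2, control 3, IGF-1 1 or IGF-1 2 was dropped (adjusted p up to 0.0765). Rb1, the retinoblastoma protein, fell by 0.49 (adjusted p = 0.0145), a call that ended when control 2, IGF-1 2 or IGF-1 3 was dropped (adjusted p up to 0.0575). On the scale of the hybridization controls its difference was -0.21 (adjusted p = 0.297). There 7 genes of this list rose and 0 fell by limma, beside 24.5% of all tested genes that rose and 2.04% that fell.

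Other nucleotide supply genes changed in both directions. Of 14 tested, 1 rose and 4 fell, with a median of -0.05 (0.21 on the scale of the hybridization controls). Nme1, a nucleoside diphosphate kinase, rose from 500 ± 15.5 to 778 ± 56.3 (0.62 ± 0.09, adjusted p = 0.00253). Samhd1, the hydrolase that breaks down deoxynucleotides, gave 848, 939 and 964 in control and 534, 473 and 519 in IGF-1 arrays. It fell by 0.83 (adjusted p = 0.000649), was lower in every IGF-1 array than in every control, and passed whichever array was dropped (adjusted p up to 0.00557). The CTP synthase Ctps2 fell by 0.97, the folate enzyme Shmt1 by 0.93 and Cmpk1, a pyrimidine monophosphate kinase, by 0.35. For Cmpk1, leaving out any array but control 3 ended the call (adjusted p up to 0.11), and on the scale of the hybridization controls its difference was -0.07 (adjusted p = 0.712), while the other 3 falls passed there.

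Among 13 tested genes of S phase chromatin and histone supply, 3 rose and 0 fell by limma (0 lower at an unadjusted p under 0.05), with a median of 0.17. Uhrf1, which carries DNA methylation to the new strand, gave 89.7, 76.3 and 63.3 in control and 173, 185 and 143 in IGF-1 arrays (0.99 ± 0.15, adjusted p = 0.0024). It passed whichever array was dropped (adjusted p up to 0.0137). The histone chaperone Asf1b rose by 0.49 ± 0.13 and the histone variant gene H2afz by 0.30 ± 0.08. Asf1b passed without control 1 or control 2 and H2afz without control 1, and both lost their calls without any other single array (highest adjusted p 0.1 and 0.121). Of 20 tested mitosis genes, listed for comparison, 3 rose (Plk1, Tpx2 and Aurka) and 2 fell (Kif11 and Cenpa), with a median of 0.20. Plk1 and Tpx2 passed whichever array was dropped, Aurka passed only without IGF-1 3, and the calls of Kif11 and Cenpa ended without control 1, control 2 or IGF-1 3, that of Kif11 also without IGF-1 2. On the scale of the hybridization controls 12 of the 20 rose and 0 fell by limma, with a median of 0.46. There 24.5% of all tested genes rose, and Kif11 (-0.17, adjusted p = 0.422) and Cenpa (-0.16, adjusted p = 0.427) did not pass. Whether the lists differ was not tested.

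**Figure D4:**
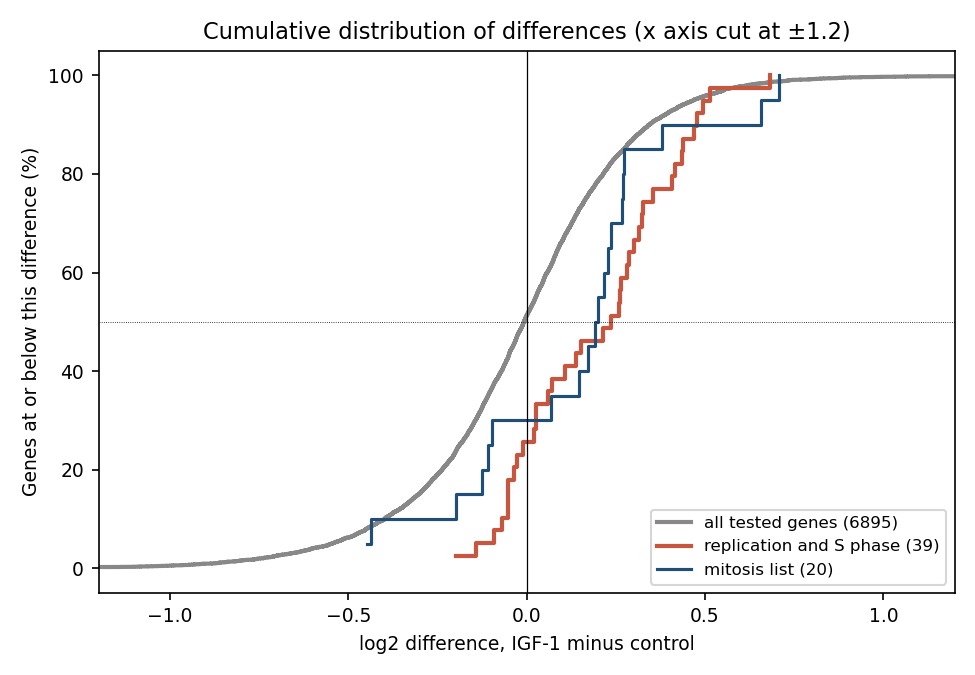
Share of genes (y axis, %) at or below each log2 difference (x axis) for all 6895 tested genes, the 39 tested replication and S phase genes and 20 tested mitosis genes. The curve of the replication genes crosses 50% at 0.24 and that of all genes near 0, and scaling to the hybridization controls moved these medians to 0.49 and 0.26.

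Markers of myeloid cells moved with treatment beside these genes. Of 13 tested neutrophil markers, 5 fell and 0 rose by limma (0 higher at an unadjusted p under 0.05), and of 7 tested macrophage and monocyte markers, 4 fell and 1 rose. Of the 5 neutrophil falls, Ltf was lost without IGF-1 2, and the other 4 on dropping control 2 or 3 or IGF-1 array 1 or 2. On the scale of the hybridization controls none of the 13 passed. Of the 4 macrophage and monocyte falls, Csf1r (-0.75, adjusted p = 0.00736) and Fcgr3 (-0.99, adjusted p = 0.00249) passed on that scale too and whichever array was dropped. Those of Cd14 and Ccr2 did not pass there, nor on dropping control 2 or 3 or IGF-1 array 1 or 2, and the rise of Cd68 ended without IGF-1 2. The summed signal of the neutrophil list was 28650 to 34380 in control and 25860 to 29190 in IGF-1 arrays, and that of the 9 macrophage and monocyte markers 5709 to 7577 and 4796 to 6604. Both ranges overlapped. A score averaging 20 such markers on the log2 scale was -0.03, 0.25 and 0.40 in controls 1, 2 and 3 and -0.37, -0.26 and 0.01 in IGF-1 arrays 1, 2 and 3. In that order the medians of the tested replication genes were 0.06, -0.02 and -0.07 in controls and 0.21, 0.18 and 0.17 in IGF-1 arrays. A relation between these medians and the score was not tested.

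With that score as a covariate in limma, 0 of the 39 members passed (6 higher and 2 lower at an unadjusted p under 0.05), their median was 0.105, and 25 of 39 differences were positive. In that fit 1.22% of all tested genes were higher and 1.22% lower. Pcna had a difference of 0.47 ± 0.13 (adjusted p = 0.0885), Tk1 0.73 (adjusted p = 0.136) and Ccne1 0.49 (adjusted p = 0.218), close to their values without the score. Mcm5 went to 0.23 (adjusted p = 0.506), Lig1 to 0.26 (adjusted p = 0.5) and Rrm2 to 0.12 (adjusted p = 0.778). Cdc6 (0.52, adjusted p = 0.196) and Rrm1 (0.55, adjusted p = 0.132) had differences no smaller than without the score. Of the further genes named above, E2f4 (0.91, adjusted p = 0.0167), Cdkn1a (0.82, adjusted p = 0.0181), Rb1 (-0.71, adjusted p = 0.0359) and Samhd1 (-0.73, adjusted p = 0.0331) still passed.

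With 1 array left out, 2 to 6 members rose. There were 2 without IGF-1 1, 3 without control 2 and 4 each without control 3 or IGF-1 2. Without IGF-1 1 that was 5.13% of the members beside 4.6% of all tested genes. The shares were 7.69% and 4.02% without control 2, and 10.3% and 4.89% without control 3. They were 10.3% and 3.6% without IGF-1 2, 15.4% and 6.02% without control 1, and 12.8% and 4.0% without IGF-1 3.

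**Figure D5:**
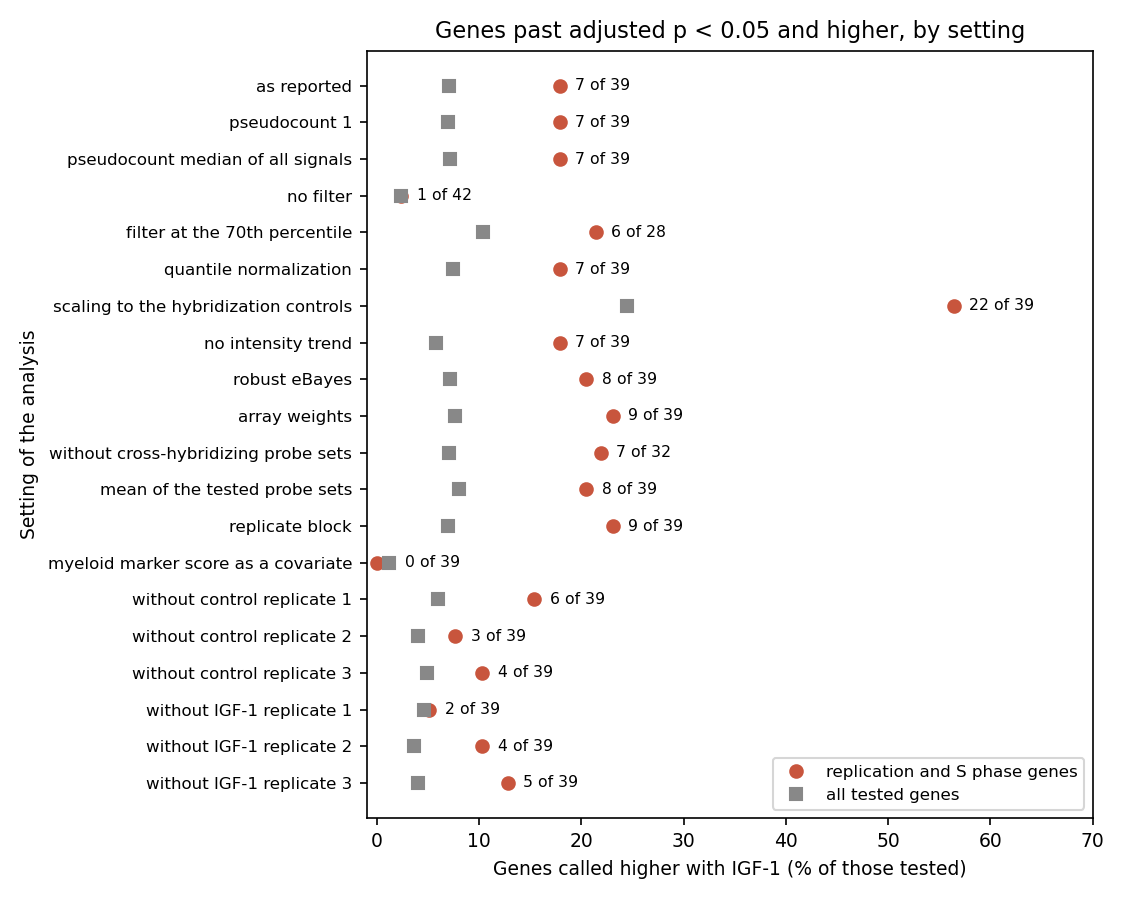
Share of tested genes called higher with IGF-1 (x axis, %) under each setting of the analysis (y axis), circles for replication and S phase genes with their counts and squares for all tested genes. The circles lie between 15.4% and 23.1% in most settings, and at 56.4% with scaling to the hybridization controls, where the square lies at 24.5%. The circles lie at or below 12.8% without any 1 array but control 1, without a filter or with the myeloid score.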

How the data were processed

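The 6 arrays were grouped by their titles. The deposited values are linear intensities made by the authors, who used MAS5 and GCOS (per the submitters' processing notes), with program versions and scaling target unstated in the sources at hand. Each array had a 2% trimmed mean of 150.1, so every difference is relative to 1 shared scale.

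The test used log2(signal + 15.57), with the 25th percentile of signals as pseudocount, which understates changes of dim probe sets. Probe sets whose mean over 6 arrays exceeded 53.61, the median of those means, entered limma 3.58.1 in R 4.3.3 (lmFit, eBayes with intensity trend, two-sided). Benjamini-Hochberg adjustment covered all 11313 probe sets tested, at 0.05. The fit was tested on simulated data. Symbols came from the platform annotation. Named were all members past the threshold, in each role the 2 largest other differences, and up to 6 called genes of each further list. The members and lists were chosen with earlier results of these data known. Alternatives covered the pseudocount, filter, scaling, eBayes settings, array weights, probe set choice, a replicate block, a myeloid score and each array left out. The number of arrays limits the precision.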

Additional observations from a re-analysis of the deposited data

How the results depend on the processing

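The 7 members that rose all kept their calls under a pseudocount of 1 or of the median signal, quantile normalization, no intensity trend, robust moderation, array weights and the mean of the tested probe sets. Without a filter 1 member rose (Pcna), 2.38% of the members beside 2.32% of all tested genes. With scaling to the hybridization controls 22 rose (the 7 among them), or 56.4%. There 24.5% of all tested genes rose and 2.04% fell. With the myeloid marker score 0 members rose, beside 1.22% of all tested genes. The median difference of the members, 0.24, was 0.49 with the hybridization controls, where the median of all genes was 0.26, and 0.105 with the myeloid score. These arrays cannot separate that score from the treatment. The score also took the calls of all probe sets from 772 higher and 937 lower to 149 and 154. With 1 array left out, 2 to 6 members rose, 0 fell, and the median was 0.19 to 0.24. The cause of these shifts was not tested.

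With the replicate number as a block 9 members rose, among them the 7, and 0 fell. Deviations of same-numbered arrays correlated at 0.12, -0.03 and 0.13 over probe sets. Controls 1 and 3 correlated best with the IGF-1 array of their own number, and control 2 with IGF-1 3 (0.03). These values leave the pairing unsettled and the labels state none, so the block is given only as an alternative. Standard errors of the members' differences ran from 0.08 (Pcna) to 0.18 (Orc1), which limits the differences that 3 against 3 arrays can call.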

Other observations

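Genes of replication stress and repair, a further set that is transcribed with S phase, had a median log2 difference of 0.08 over 13 tested members (0.36 with scaling to the hybridization controls). Of these 1 rose and 0 fell by limma, with 3 higher and 0 lower at an unadjusted p under 0.05. Of all tested genes 7.05% rose and 8.05% fell, and 14.4% were higher and 16.1% lower at that unadjusted p. Msh6, which recognises mismatches left by polymerases, gave 210, 204 and 204 in control and 306, 269 and 262 in IGF-1 arrays, with every IGF-1 array above every control. The rise was 0.41 ± 0.10 (adjusted p = 0.0239), and dropping control 2, control 3, IGF-1 1 or IGF-1 2 ended the call (adjusted p up to 0.0709). Brca1, which acts in recombination repair (0.08 ± 0.10, adjusted p = 0.636), and the checkpoint kinase Chek1 (0.07 ± 0.12, adjusted p = 0.759) had overlapping groups. Rad51ap1 (0.40, adjusted p = 0.0744) and Chek2 (0.28, adjusted p = 0.167) had IGF-1 arrays above all controls but did not pass. Of the 13 differences 4 were negative. Brca1, Chek1, Rad51ap1 and Chek2 were chosen after their values were seen.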
